A study of Mus musculus with 6 samples.

Results

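The 10 genes described here, Sox9, Col2a1, Col11a2, Col9a1, Col9a2, Col9a3, Acan, Hapln1, Matn1 and Matn3, encode the transcription factor and the matrix proteins that define cartilage. They were chosen by gene name, and their probes were found by the RefSeq accession each probe carries. All 10, of 17178 genes that could be named, were on the array, with 15 of its 41174 gene probes: 3 for Sox9, 2 each for Col2a1, Col11a2 and Hapln1, and 1 for each other gene. The samples were tooth germs of the lower first molar from newborn mice (postnatal day 0) of strain 129/Sv, labelled male throughout. By their labels, 3 were wild-type (WT1, WT2 and WT3) and 3 were Perp-null (PN1, PN2 and PN3). Perp-null mice lack Perp, a membrane protein of desmosomes, the junctions between epithelial cells. The comparison asks what the loss of Perp changes in the developing tooth. The labels describe 3 biological replicates per genotype but do not say whether germs or animals were pooled, and what spread the p-values measure is that between these 6 arrays, which may in part be technical.

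In cartilage, SOX9, together with SOX5 and SOX6, switches on the genes of the matrix. Thin fibrils of collagens II, IX and XI form a net that holds the large proteoglycan aggrecan, which link protein fastens to hyaluronan, and matrilins connect these parts. In the newborn lower jaw, Meckel's cartilage lies near the molar germs, so tissue dissected around a germ may include chondrocytes. Several of these genes are also used outside cartilage, and SOX9 is known in epithelial and neural crest derived cells. In tissue samples like these, fewer cells of a type and less RNA per cell cannot be told apart.

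The deposited data exist in 2 forms, 1 scanner file per sample and 1 table with a column of the authors' log2 values per sample, and the 2 did not match by label. Only the file of WT1 ranked its probes most like its own column (Spearman rho = 0.998 over 41174 probes). The file labelled WT2 was most like column PN1 (rho = 0.998, against 0.967 for its own), file WT3 most like column WT2 (0.999, against 0.967), file PN1 most like column WT3 (0.997, against 0.908) and file PN2 most like column PN3 (0.994, against 0.972). File PN3 had no column above 0.985, and column PN2 had no file above 0.977. In the table, Perp followed the labels, with log2 values of 17.01, 16.95 and 16.98 in columns WT1, WT2 and WT3 and of 7.51, 8.24 and 7.26 in columns PN1, PN2 and PN3. In the scanner files it did not: its log2 signal, with the array's own 75th percentile set to 0, was 5.96, −5.06 and 5.91 in files WT1, WT2 and WT3 and 5.87, −6.81 and 5.97 in files PN1, PN2 and PN3. Xist, the RNA of the inactive X chromosome in females, went against the male label in both forms, with values of 8.16, 9.27 and 10.14 in columns WT3, PN1 and PN3 against 5.63 to 6.25 in the other columns. Its signal was −2.18, −1.84 and −1.06 in files WT2, PN1 and PN2 against −6.96 or below in the others. No file was moved to another group. Each result is given by label for the files and for the table, and "lower" or "higher" always means the samples labelled Perp-null against those labelled wild-type.

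**Figure D1:**
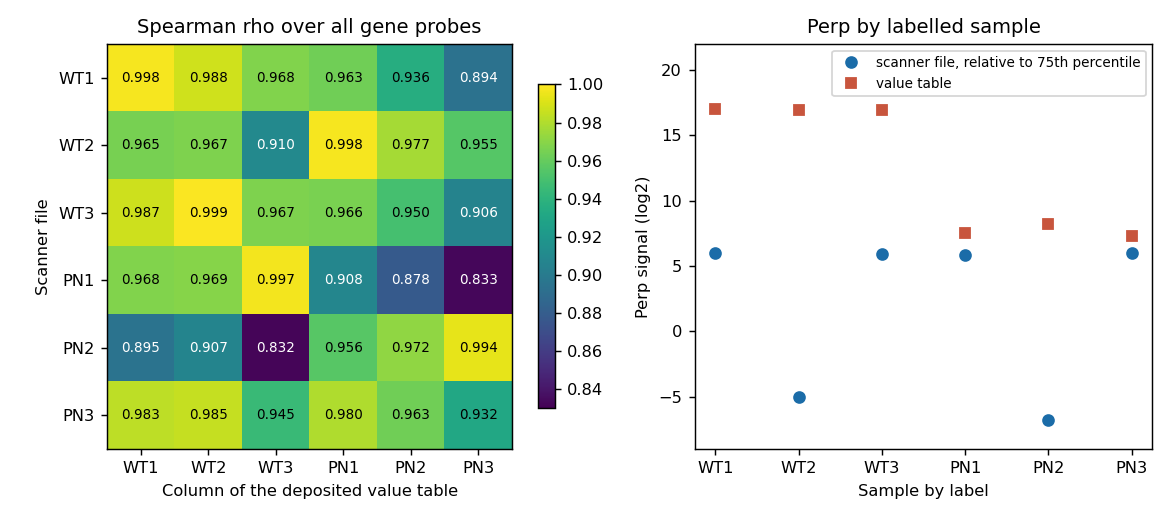
Left, Spearman rho over all gene probes between each scanner file (rows) and each column of the authors' value table (columns), where only file WT1 has its highest value on its own label. Right, the log2 Perp signal by labelled sample, from the scanner files (circles, with the 75th percentile of the array at 0) and from the value table (squares), which is near 17 in the 3 wild-type columns and between 7.26 and 8.24 in the Perp-null columns.

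No cartilage matrix gene passed the test on the scanner files. Among the table's values 2 of the 10 did, Col9a1 and Matn1, both lower. Perp itself was at −5.06 in file WT2 and at 5.87 and 5.97 in files PN1 and PN3. The labelled groups of the files therefore mix samples with high and with low Perp signal. Neither the lack of calls nor a separation of groups in the files can be read as a result on the loss of Perp. On the files 8 of the 10 genes had a lower mean, beside 61.0% of all 26677 genes and unnamed probes tested, and the median difference of the 10 was −0.64 log2 units against −0.08 for all. Only Hapln1 and Col9a2 had an unadjusted p under 0.05 there, where 2.36% of all features did, and 0 of the 26677 had an adjusted p under 0.05 (limma, Benjamini-Hochberg). By the table's values, 9 of the 10 genes had a lower mean, beside 48.7% of all features, and the median difference was −0.48 against 0.01. An unadjusted p under 0.05 was reached there by 4 of the 10, beside 35.8% of all features (limma). The 2 genes called in the table stand beside 23.5% of all features called there, 6269 in number, and 14.9% called as lower, so the count is near the background. That number of 6269 rested on single columns: it was 1 without PN2, 787 without PN3, 2662 without WT3 and 3188 without WT1.

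**Figure D2:**
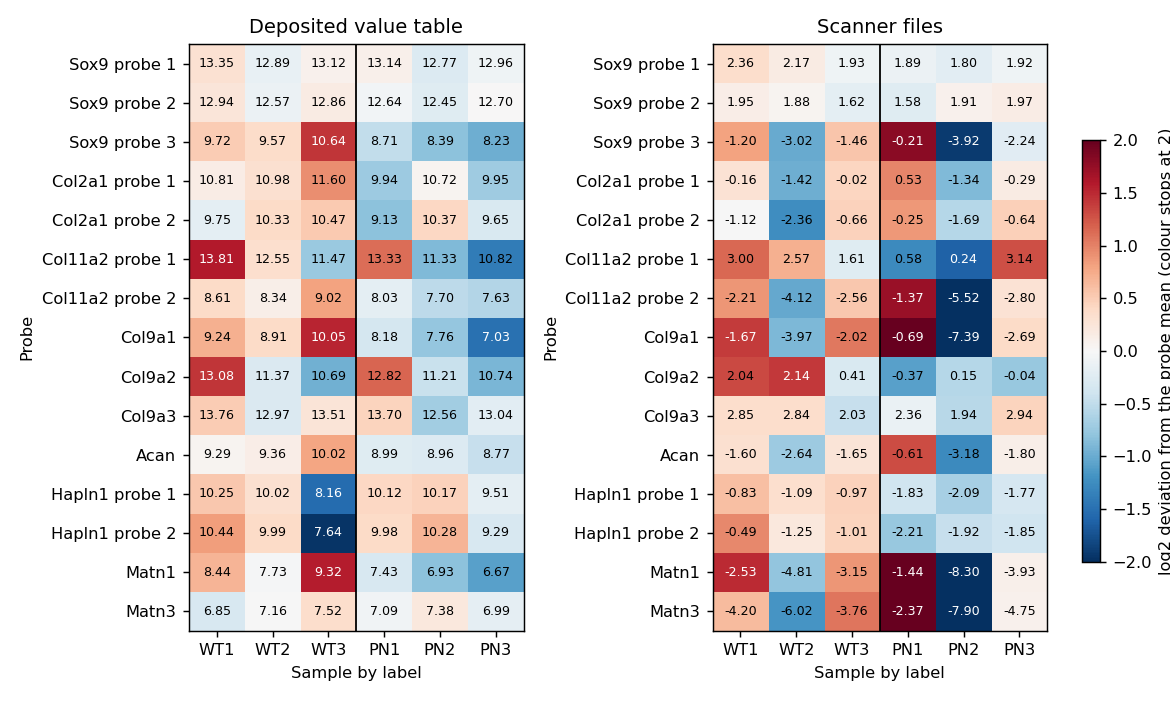
Log2 value of each of the 15 probes (rows, ordered by gene and then from the brightest probe, called probe 1, to the dimmest) in the value table (left) and the scanner files (right, with the array's 75th percentile at 0), by labelled sample. Colour gives the deviation from the probe's mean. Among the columns, 8 probes are highest in WT3 and 7 in WT1, and among the files the same 8 are highest in file PN1.

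Sox9, the transcription factor that directs chondrocyte formation, was read by 3 probes that did not move alike. Its brightest probe was at 13.35, 12.89 and 13.12 in columns WT1, WT2 and WT3 and at 13.14, 12.77 and 12.96 in columns PN1, PN2 and PN3. The groups overlapped, with a difference of −0.16 (SE 0.16, adjusted p = 0.545 over all probes). The middle probe behaved like it, with a difference of −0.19 (SE 0.15, adjusted p = 0.42). The dimmest probe had 9.72, 9.57 and 10.64 in the wild-type columns and 8.71, 8.39 and 8.23 in the Perp-null columns. All 3 Perp-null columns lay under all 3 wild-type ones, and the difference was −1.53 (SE 0.33), or 2.89-fold lower (adjusted p = 0.021). Without column PN2 or PN3 this call was lost, with an adjusted p of up to 0.0715. On the scanner files the brightest probe lay within 1.80 to 2.36, while the dimmest ran from −3.92 in file PN2 to −0.21 in file PN1, without separating the groups. The array files used here hold no probe sequences, so which part of the Sox9 transcript each probe reads is not given here.

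Col2a1 encodes the chain of collagen II, the main fibril of cartilage. Its brighter probe had 10.81, 10.98 and 11.60 in the wild-type columns and 9.94, 10.72 and 9.95 in the Perp-null columns. The groups did not overlap, although column PN2 came within 0.1 of column WT1, and the difference of −0.93 (SE 0.30) did not pass (adjusted p = 0.058 over all probes). The dimmer probe overlapped between the groups, with a difference of −0.47 (SE 0.35, adjusted p = 0.404). On the scanner files the order turned: the brighter probe was at −0.16, −1.42 and −0.02 in files WT1, WT2 and WT3 and at 0.53, −1.34 and −0.29 in files PN1, PN2 and PN3, a difference of 0.16 (SE 0.56). The file labelled PN1 was the highest of the 6 for both Col2a1 probes and the file labelled WT2 the lowest.

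Col11a2, the collagen XI chain that sets fibril width together with collagen II, had 2 probes with different patterns. The bright one was at 13.81, 12.55 and 11.47 in the wild-type columns and at 13.33, 11.33 and 10.82 in the Perp-null columns. Columns WT1 and PN1 were the highest, and the groups overlapped (difference −0.78, SE 0.73, adjusted p = 0.512). The dim one had 8.61, 8.34 and 9.02 in the wild-type columns and 8.03, 7.70 and 7.63 in the Perp-null columns. Here the groups did not overlap, and the probe was lower by 0.87 on the log2 scale (difference −0.87, SE 0.26, adjusted p = 0.0457), a call that held in 1 of the 6 fits that left out a column. Across the 6 columns the dim probe followed the brighter Col2a1 probe (r = 0.80), while the bright Col11a2 probe followed Col9a2 (r = 0.94). These coefficients describe 6 columns of tissue that share array background and normalization, and were not tested.

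Collagen IX coats the collagen II fibril and is built from the chains of Col9a1, Col9a2 and Col9a3. The 3 genes did not move together. Col9a1 had 9.24, 8.91 and 10.05 in the wild-type columns and 8.18, 7.76 and 7.03 in the Perp-null columns. Every Perp-null column was under every wild-type one, and Col9a1 was 3.35-fold lower (difference −1.74, SE 0.40, adjusted p = 0.0225 over all probes). This call over probes held in 4 of the 6 fits that left out a column, with an adjusted p of up to 0.0752. In the fit over genes (adjusted p = 0.0233) it was lost without WT3, PN2 or PN3, with differences of −1.42, −1.80 and −1.43 (adjusted p = 0.054, 0.0728 and 0.0766). Col9a2 was at 13.08, 11.37 and 10.69 in the wild-type columns and at 12.82, 11.21 and 10.74 in the Perp-null columns. Both columns of replicate 1 were far above the other 4, and the labelled groups differed by −0.12 (SE 0.69, adjusted p = 0.926). Col9a3 was bright in all columns, from 12.56 in PN2 to 13.76 in WT1, and its groups overlapped (difference −0.31, SE 0.31, adjusted p = 0.532).

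On the scanner files Col9a1 ran from −7.39 in file PN2 to −0.69 in file PN1, the whole range of the 6 files lying inside the labelled Perp-null group. Its difference there was −1.04 (SE 1.68). Col9a2 had 2.04, 2.14 and 0.41 in files WT1, WT2 and WT3 and −0.37, 0.15 and −0.04 in files PN1, PN2 and PN3. These groups did not overlap, and the unadjusted p was 0.0107, but after adjustment over all probes it was 1.00 for a difference of −1.62 (SE 0.46). File WT2, at 2.14, is the one most like column PN1, at 12.82 for Col9a2. File PN1, at −0.37, is the one most like column WT3, at 10.69. The Col9a2 difference thus changed with the labels, which put these matched samples in different groups in the 2 forms. By the table's labels the groups overlapped.

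Acan and Hapln1 encode partners in the same complex, aggrecan and the link protein that fastens it to hyaluronan, and they had different orders of the columns. Acan was at 9.29, 9.36 and 10.02 in the wild-type columns and at 8.99, 8.96 and 8.77 in the Perp-null columns. The groups did not overlap, but the difference of −0.65 (SE 0.27) did not pass (adjusted p = 0.124 over all probes). Hapln1, by its brighter probe, was at 10.25, 10.02 and 8.16 in the wild-type columns and at 10.12, 10.17 and 9.51 in the Perp-null columns. Column WT3, the highest for Acan, was the lowest for both Hapln1 probes, and the difference of the brighter probe was 0.46 (SE 0.53, adjusted p = 0.607), which turned to −0.20 without WT3.

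On the scanner files Hapln1 was the member with the smallest p. Its brighter probe was at −0.83, −1.09 and −0.97 in files WT1, WT2 and WT3 and at −1.83, −2.09 and −1.77 in files PN1, PN2 and PN3. All files labelled Perp-null were lower, by a difference of −0.93 (SE 0.22, unadjusted p = 0.0048), and the second probe gave −1.08 (SE 0.28). Neither passed after adjustment over all probes (adjusted p = 1.00). On the files, 4 of the 15 probes had all Perp-null values under all wild-type ones, beside 3.42% of all probes tested: both Hapln1 probes, Col9a2 and the brightest Sox9 probe. Acan overlapped there, from −3.18 in file PN2 to −0.61 in file PN1.

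The matrilins Matn1 and Matn3, which link collagen fibrils to aggrecan, were the dimmest members. Matn1, found mainly in cartilage, was at 8.44, 7.73 and 9.32 in the wild-type columns and at 7.43, 6.93 and 6.67 in the Perp-null columns. The groups did not overlap, and the difference was −1.49 (SE 0.40, adjusted p = 0.0342 over all probes). The file that matches column PN3, the lowest, is the 1 in which Matn1 was not well above background, so no fold is given. The call held in 2 of the 6 fits that left out a column, and without PN3 the adjusted p was 0.114. Matn3, which in humans is a gene of inherited skeletal dysplasia, stayed between 6.85 and 7.52 in all columns, with a difference of −0.02 (SE 0.21, adjusted p = 0.955). Both were not well above background in file PN2, at −8.30 for Matn1 and −7.90 for Matn3, and were well above background in the other 5 files. All other member probes were well above background in all 6 files.

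**Figure D3:**
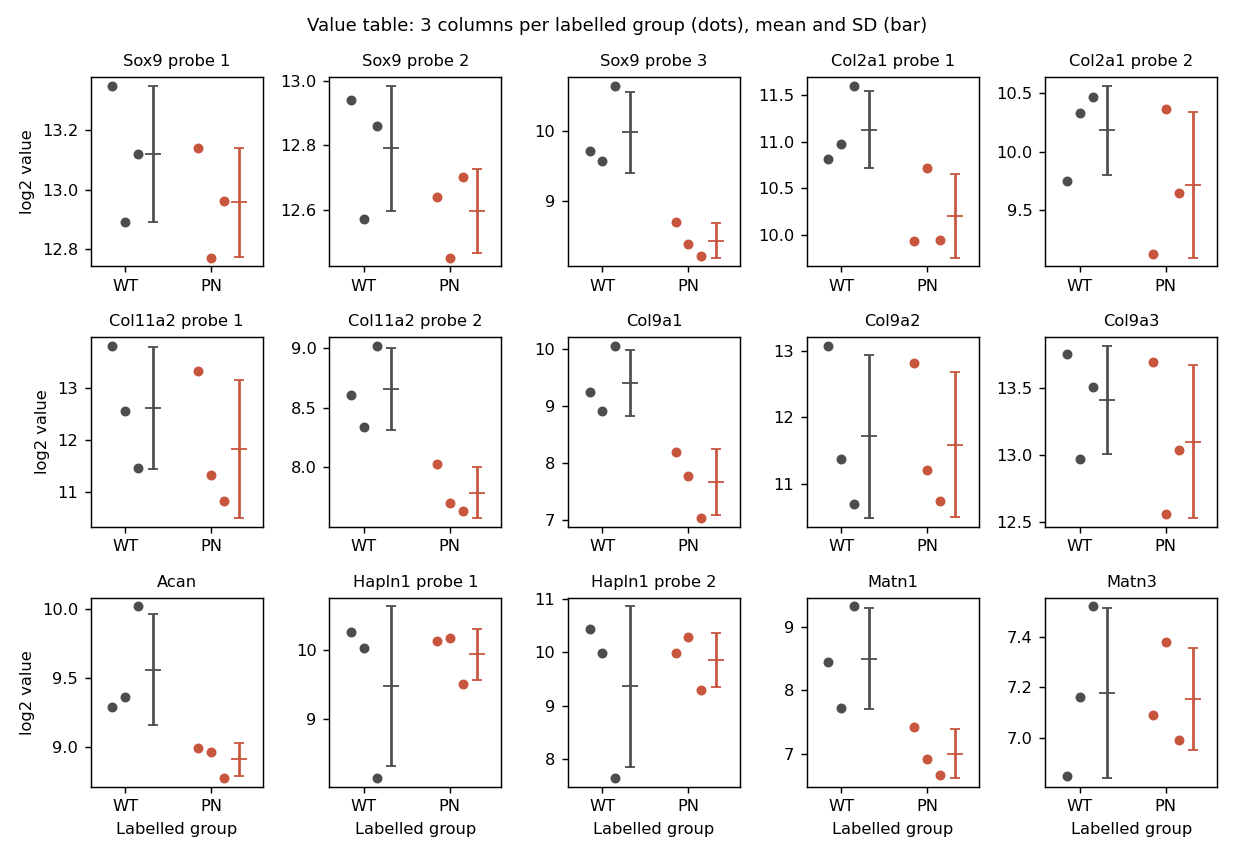
Log2 value of each member probe in the 3 wild-type columns (WT, grey) and the 3 Perp-null columns (PN, red) of the value table, in the order of the replicate numbers, with the group mean and SD as a bar beside the dots. The groups do not overlap for 6 probes, the dimmest Sox9 probe, the brighter Col2a1 probe, the dimmer Col11a2 probe, Col9a1, Acan and Matn1. The vertical axes differ between panels and do not start at 0.

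By the columns, 6 of the 15 probes had separate groups, all with Perp-null lower, beside 23.0% of all probes tested that were lower without overlap and 20.6% that were higher. An adjusted p under 0.05 was reached by 4 of the 15, all lower, beside 23.1% of all probes and 13.7% that were called as lower. The 4 called probes lay at mean levels from 7.75 to 9.21, where calls were common in the table as a whole. Of all features at levels from 7 to 8, 27.7% were called as lower, from 8 to 9 27.4% and from 9 to 10 9.7%, against 0.2% above 13. Calls in this range went both ways, with 50.7% of features called in either direction from 7 to 8 and 40.7% from 8 to 9. In all, 2637 features (9.9%) were lower by 1 log2 unit or more, 95.7% of them at a level from 7 to 10, and 1918 (7.2%) were higher by as much. Col2a1 lay outside this range by its brighter probe: at levels from 10 to 11 2.0% of features were called, the median difference was 0.16, and the lowest 5% were at −0.69 or below, beside −0.93 for Col2a1. Its dimmer probe lay inside the range, at a level of 9.95. The difference of that probe was −0.47, where the lowest 5% of features from 9 to 10 were at −1.8 or below. Neither Col2a1 probe was called.

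**Figure D4:**
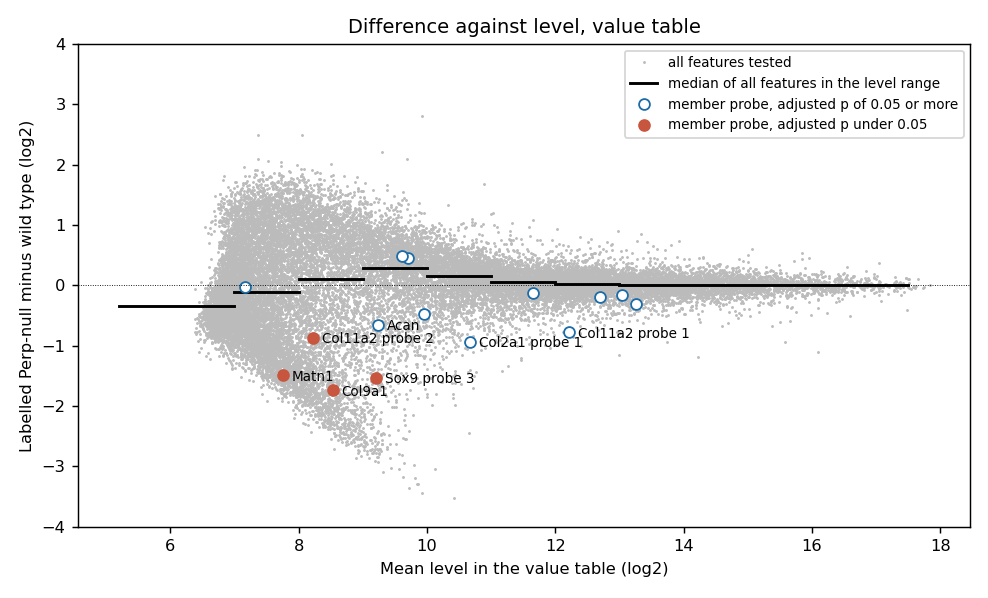
Difference between labelled Perp-null and labelled wild-type columns (log2) against the mean level in the value table (log2), for all 26677 features (grey) and the 15 member probes (circles, filled where the adjusted p is under 0.05), with black lines at the median of all features per level range. The filled members, at levels from 7.75 to 9.21, lie among dim features that spread widely to both sides.

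Several dim cartilage probes ordered the files as the negative control spots did, which carry no mouse sequence and read the background of an array. This likeness was noticed after the values had been seen. The median raw signal of these spots was 127 in file PN1, 90 in WT1, 80 in WT3, 65.5 in PN3, 37.5 in WT2 and 32 in PN2. Exactly this order of the 6 files was seen for 5 of the 15 member probes, those of Col9a1, Acan and Matn1 and the dimmest of Sox9 and Col11a2, beside 23.3% of all probes tested. Matn3 missed it by a swap of neighbours, with a rank correlation of 0.94. The Col2a1 probes did not have the exact order, but their rank correlations with it were 0.89 for the brighter and 0.71 for the dimmer. The bright probes of Sox9, Col11a2, Col9a2 and Col9a3 did not follow it, with rank correlations from −0.37 to 0.26. Over all probes the order was found in 50.9% of those with a mean signal below −4, in 37.4% from −4 to −2, in 7.04% from −2 to 0 and in 0.189% from 0 to 2.

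The order was also looked for in the 5 columns that a file matched with a rho above 0.99. The matching files of columns WT3, WT1, WT2, PN1 and PN3 had negative controls of 127, 90, 80, 37.5 and 32, so the columns labelled wild-type had the brighter ones. In these 5 columns exactly that order was seen for the 4 probes called in the table, beside 11.5% of all probes. These were the dimmest Sox9 probe, the dimmer Col11a2 probe, Col9a1 and Matn1. All 4 had been called as lower, with every Perp-null column under every wild-type one, so part of this order was fixed beforehand. The share over all probes, called or not, is therefore no like comparison. The 5 columns also match files in which the order had already been seen, so this is no separate result. Acan no longer had this order in the columns (rank correlation 0.90), and Matn3, the dimmest member, was far from it (0.40). Both Col2a1 probes had a rank correlation of 0.80 with it. The part of the array background in the differences of these probes was not tested. The level of the background and the labelled genotype cannot be told apart in these 5 columns. Hapln1, at a level of 9.70 by its brighter probe, did not have the order of the negative controls. In the files its mean signal was −1.43, in the range where 7.04% of all probes had the order. The dimmest Sox9 probe, at a level of 9.21 and a mean signal of −2.01 in the files, lay in the range with 37.4%.

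The promoters shown are those of Col9a1 and Matn1, called in the table, and of Col11a2, called by its dim probe only. They were chosen because these 3 probes and the dimmest Sox9 probe fell together across the columns. The bright Col11a2 probe did not have their order, and its groups overlapped. RefSeq promoter sequence (GRCm38.p6) was at hand for 7 of the 10 genes, and the 250 bases before each start are printed 5′ to 3′, with matches to TATAAA or GGGCGG, on either strand, in capitals. Col9a1 has 2 starts there.
Col9a1, upstream start, chr1:24177360-24177609, plus strand: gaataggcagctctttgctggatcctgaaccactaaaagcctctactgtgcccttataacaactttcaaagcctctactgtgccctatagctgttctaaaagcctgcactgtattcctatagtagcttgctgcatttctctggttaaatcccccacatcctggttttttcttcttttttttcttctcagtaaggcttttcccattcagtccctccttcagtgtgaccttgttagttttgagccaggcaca
Col9a1, downstream start, chr1:24194953-24195202, plus strand: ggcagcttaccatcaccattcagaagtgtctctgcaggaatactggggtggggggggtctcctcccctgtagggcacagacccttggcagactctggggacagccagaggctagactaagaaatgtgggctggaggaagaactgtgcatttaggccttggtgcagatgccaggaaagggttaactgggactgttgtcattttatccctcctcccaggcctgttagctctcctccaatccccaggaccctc
Matn1, chr4:130944135-130944384, plus strand: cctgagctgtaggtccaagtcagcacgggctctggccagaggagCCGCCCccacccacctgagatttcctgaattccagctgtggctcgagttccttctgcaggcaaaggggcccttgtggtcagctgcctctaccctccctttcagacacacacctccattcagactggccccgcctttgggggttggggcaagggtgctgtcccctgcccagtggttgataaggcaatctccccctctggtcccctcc
Col11a2, chr17:34038888-34039137, plus strand: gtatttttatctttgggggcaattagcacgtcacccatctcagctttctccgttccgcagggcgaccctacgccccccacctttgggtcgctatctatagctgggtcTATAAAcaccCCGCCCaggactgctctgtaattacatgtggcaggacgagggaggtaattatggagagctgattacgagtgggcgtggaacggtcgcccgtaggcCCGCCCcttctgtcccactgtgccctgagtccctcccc
The letters AACAAT and ACAAAG, both close to the core that SOX proteins bind, were searched on both strands and matched none of the 8 promoters of the 7 genes, while 24.0% of all 32851 promoters hold at least 1 of them. The other motifs, TATAAA and GGGCGG, were added after this search gave no match. TATAAA was found, among the members, in Col11a2 alone, at −143 from the start used, beside 12.4% of all promoters. The annotated Col11a2 gene begins at base 34038919, inside the printed window, so this start lies within the gene. The same holds for both Col9a1 starts, as that gene begins at base 24177589. It also holds for the start of Hapln1, not printed, whose gene begins at base 89540529. GGGCGG, the GC box, was found in Col11a2 at −133 and −38, in Matn1 at −206, in Col9a2, in Acan and in Matn3, where some matches overlapped, beside 32.7% of all promoters. These are matches of letters in this window only.

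Of a list of 22 other cartilage genes, 20 were tested, and Snorc and Ihh were not. On the scanner files 17 of the 20 had a lower mean, beside the 61.0% of all features, and 0 had an unadjusted p under 0.05 (limma). By the columns, 10 were lower and 10 higher, with a median difference of −0.02, and 3 passed the test, all lower, beside the 14.9% of all features called as lower, so the count is near the background. These were Mia, a protein secreted by chondrocytes, Cytl1, a cytokine-like protein of cartilage, and Sox5, the partner of SOX9. Mia had 9.40, 9.09 and 10.63 in the wild-type columns and 8.17, 7.96 and 7.83 in the Perp-null columns (difference −1.72, SE 0.41, adjusted p = 0.0245). Cytl1 gave −1.08 (SE 0.30, adjusted p = 0.036). Sox5 and the brightest Mia probe had exactly the order of the negative controls, both in the files and in the matched columns. Cytl1 had it in the files, with a rank correlation of 0.90 in the columns. Sox5 was well above background in 5 files only. The part of the array background in these 3 differences was not tested. Among the genes well above background in all files with the widest range in the table, Epyc, a small proteoglycan, was highest in columns WT1 and PN1 at 9.69 and 9.62 and between 7.54 and 8.46 in the others. Col11a1, the other collagen XI chain, was likewise highest there, at 14.10 and 13.98, as the bright Col11a2 probe and Col9a2 were, and Scrg1 was highest in PN1 at 11.95.

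Some markers of other tissues differed between the same columns. In columns WT1 and PN1, where Col9a2 and bright Col11a2 were high, the 6 tested ameloblast genes had a median deviation of 1.11 and 1.02 from their mean over the columns, against −1.51 to 0.11 in the other 4. The 4 odontoblast genes had 0.81 and 0.58 there, against −0.96 to 0.48. In column WT3, where both Hapln1 probes were lowest, the 6 endothelial genes were at −1.78 and the 8 genes of dental mesenchyme at −0.75, each the lowest of the 6 columns. Myh3 of embryonic muscle had the order of the 4 called cartilage probes over the 5 columns matched to a file, with WT3 highest at 10.63 and PN3 lowest at 7.48. It did not pass the test (difference −1.58, SE 0.50, adjusted p = 0.0554). The 11 tested muscle genes as a list did not have this order over all columns, with a median deviation of 0.61 in WT3, −0.61 in PN3 and 0.90 in PN2, and 6 lower and 5 higher. The part of these tissues in the results on cartilage genes was not tested.

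Levels of different probes are not comparable, so the log2 of a list's summed signal is given only between the groups of 1 list. In the columns the 10 cartilage matrix genes summed to 14.81 to 15.67 in wild-type and 14.41 to 15.39 in Perp-null, sums carried by the bright probes of Sox9, Col9a2, Col9a3 and Col11a2. The 15 tested bone genes summed to 18.16 to 18.78 and 17.89 to 18.81, and the 11 tested muscle genes to 13.66 to 14.56 and 13.34 to 14.83, so the groups overlapped in all 3 lists. Of the bone genes 1 was called, as lower, and of the muscle genes 1 as lower and 1 as higher, beside the 23.5% of all features called. The defining markers of the labelled tissue were well above background in all 6 files. In the columns Amelx and Ambn of ameloblasts were at 16.65 to 17.86 and 13.67 to 16.80, Dspp of odontoblasts at 14.61 to 15.92, Msx1 of dental mesenchyme at 10.88 to 12.69 and Krt14 of epithelium at 15.89 to 16.98.

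The named genes whose pattern over the 6 columns was most like the mean of the 10 members were Lrrn2 (r = 0.998), Plod1 (0.989), Cmbl (0.985), Gucy1a1 (0.983), Grin3b (0.983), Parvb (0.971), Marco (0.963) and Trpv2 (0.962), among 2909 candidates that varied with an SD of at least 0.5. Over the 6 scanner files they were Trpv2 (0.993), Cdh20 (0.99), Gucy1a1, Vps8 and Sprr2g (0.989 each), and Ptgis, Adra1d and Scn4a (0.988, 0.988 and 0.987), among 3804. Gucy1a1 and Trpv2 were on both lists, and neither list held a gene of the other cartilage list. These coefficients rank genes over 6 samples and were not tested. The mean of the 10 members itself was 0.57, 0.07 and 0.22 in columns WT1, WT2 and WT3 and 0.15, −0.34 and −0.67 in columns PN1, PN2 and PN3, so the groups overlapped. In the files it was 0.79, −0.16 and 0.31 in WT1, WT2 and WT3 and 0.67, −1.74 and 0.14 in PN1, PN2 and PN3, with the lowest value in file PN2.

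**Figure D5:**
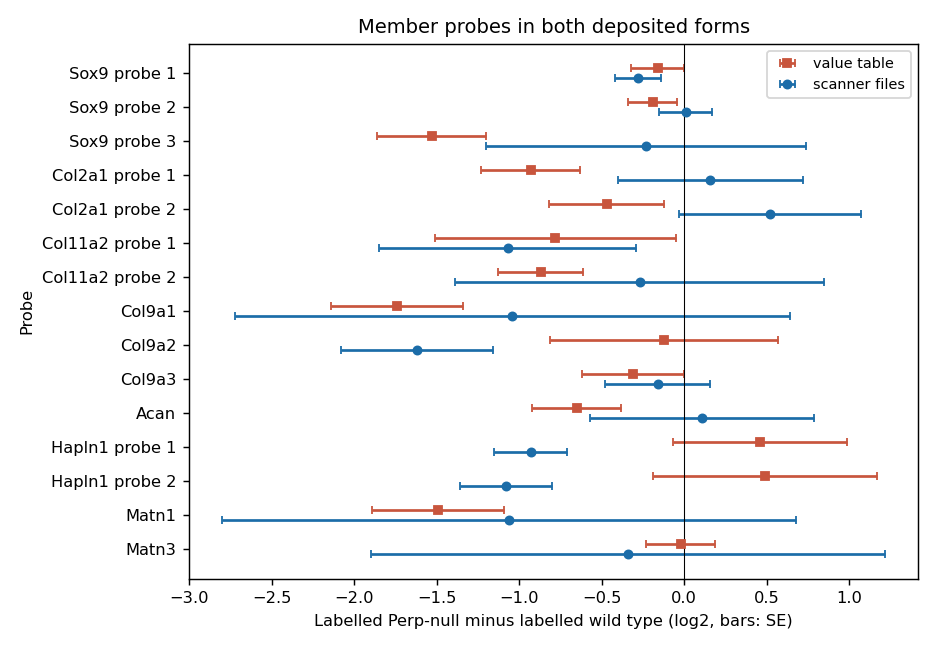
Difference between labelled Perp-null and labelled wild-type samples (log2, bars give the SE of the limma fit) for each member probe, from the value table (squares) and the scanner files (circles). By label, which does not match between the 2 forms, they differ most for Col9a2 and Hapln1, lower in the files with overlapping groups in the table. The dimmest Sox9 probe also differs, at −1.53 in the table and −0.23 in the files.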

How the data were processed

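RNA was amplified and labelled with Cy3 and hybridised to 1 one-colour Agilent array per sample, per the labels' protocols. The scanner files hold spot intensity on a linear scale, deposited as the scanner software wrote it. The software was Agilent Feature Extraction, which the submitters' processing notes give as 10.3 and the headers as 10.5.1.1. Its processed signal comes after background subtraction and detrending, as statistics in the file headers record, with no scaling from array to array. The authors' value table holds log2 values, and how they were made is not given in the sources used here. Its columns have medians of 8.36 to 8.39 and nearly equal distributions, and against log2 of the processed signal of bright probes its slope was 0.956 to 1.093. It is not centred by gene.

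From the files, log2 of the processed signal minus the 75th percentile of each array was taken over 41174 gene probes, without 1417 control spots and 4 to 68 outlier spots per array. No spot was saturated. Of the gene probes, 72.8% to 82.3% were well above background per array. Genes were named by accession through RefSeq (GRCm38.p6), which named 24844 probes (60.3%) and 17178 genes. Probes well above background on at least 3 arrays were kept, with the brightest per gene, and every probe was also tested on its own. The comparison used limma 3.58.1 (lmFit and eBayes with an intensity trend) in R 4.3.3. P-values were adjusted by Benjamini-Hochberg over every feature tested, and 0.05 was the threshold. The table was fitted over the same features. The fit of the files is the main one. The table was chosen as its alternative, and further settings of the table were added after the data were seen. The fit was tested on simulated data. In the files, scan and slide coincide with the labelled group and cannot be told apart from it. By their matching files, columns WT1, WT2 and PN1 belong to slide 1 and columns WT3 and PN3 to slide 2. Column PN2 matched no file, so its slide is not known. The members and lists were chosen with earlier results of these data known. All members were named, with the 5 widest-ranging other cartilage genes, the 8 most similar genes, and defining markers of the other lists. Sox5 was named beside them because it passed.

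The replicate numbers were checked for pairing: in the files, deviations from the group means correlated across features at 0.843, 0.876 and 0.193 between samples of the same number, all above 0.1, and in the table at 0.408, 0.393 and −0.023. Samples of unlike numbers ranged from −0.914 to 0.727 in the files and from −0.461 to 0.174 in the table. Files WT3 and PN1, at 0.727, were thus more alike than the 2 files of number 3. No label says that a number marks a shared litter or day, and files of equal numbers also sat at equal slide positions. This does not hold for the columns: by their matching files, column WT1 was at position 1 and column PN1 at position 2.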

Additional observations from a re-analysis of the deposited data

How the results depend on the processing

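On the scanner files no member passed under the other scalings, background corrections, filters, probe rules, spread models, array weights, the replicate block or without any 1 file. The fit without the 3 files whose Perp signal goes against the label left files WT1 and WT3 and only 1 file labelled Perp-null, PN2, assumed to vary like the others. It gave 7 members with an adjusted p under 0.05, 7 with an unadjusted one, 12078 of all features called and 13241 with an unadjusted p under 0.05, a mean of the members of −2.29, and −1.25 for Col2a1 and −1.55 for Acan. Without the 3 files whose Xist signal goes against the label 1 file, PN3, was left in the same way, and these numbers were 0, 4, 32 and 6642, with Col2a1 at −0.20, Acan at −0.17, Col11a2 at 0.83 and Col9a3 at 0.50. Reading the value table instead gave 2 members called, 4 with an unadjusted p under 0.05, 6269 features called and 9561 with an unadjusted p under 0.05. It turned Col2a1 to −0.93, Acan to −0.65 and Hapln1 to 0.46. Without both files of replicate number 2, 1 member and 276 features had an unadjusted p under 0.05, and Col9a1 was at 0.16, Col9a3 at 0.21, Matn1 at 0.15 and Matn3 at 0.42. Median scaling left 0 members and 15 features with an unadjusted p under 0.05, and array weights gave 2648 features with Col2a1 at −0.09, Acan at −0.07, Col11a2 at 0.70 and Col9a3 at 0.45. Array weights, normexp with the 75th percentile and the replicate block each called 1 feature in place of 0, and the replicate block changed no call of a member. Acan was at −0.02 with normexp and the 75th percentile, Matn1 at 0.03 and Matn3 at 0.09 with normexp and quantile normalization, and Matn3 at 0.10 with quantile normalization. Leaving out each file in turn moved Col2a1 from −0.28 to 0.65, Acan from −0.52 to 0.76, Col9a1 from −2.49 to 0.86, Col9a3 from −0.43 to 0.08, Matn1 from −2.62 to 0.81 and Matn3 from −1.66 to 1.1, and the features with an unadjusted p under 0.05 from 277 to 1332.

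In the value table the members called ranged from 0 to 2, the members with an unadjusted p under 0.05 from 2 to 5 and the features called from 1 to 5899 when 1 column at a time was left out. Without the column that matches no file, PN2, 0 members and 1 feature were called, and Col9a2 was at 0.07. The samples of the table share only a number, and with the replicate block 0 members and 1 feature were called. Without the 3 columns whose Xist signal goes against the label, columns WT1 and WT2 were left with only 1 column labelled Perp-null, PN2, and Matn3 was at 0.37. With probes above background on all 6 arrays 1 member and 1543 features were called and 4786 had an unadjusted p under 0.05. Array weights put Matn3 at 0.21. Single columns moved Col9a2 from −0.74 to 0.56, Hapln1 from −0.20 to 0.84 and Matn3 from −0.19 to 0.15. The cause of these changes was not tested. Matn1 and Matn3 were not well above background in file PN2, and 3 arrays per group limit the precision.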
